A study of Mus musculus with 14 samples.

Results

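Autophagy machinery genes were followed across 4 genotypes of mouse small intestinal organoids. The set holds 46 genes, taken by symbol, whose products start the autophagosome, supply its membrane, couple ATG8 proteins to lipid, gather cargo and drive fusion with the lysosome. All 46 were present in the deposited table of 18781 genes. All 46 also had a mean of at least 10 on the linear scale over the 14 libraries, so every member was among the 12802 genes tested. Atg16l1 is both a member and a deleted gene, so it was left out of the counts, which leaves 45 genes.

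The organoids were grown from intestinal crypts in Matrigel with Intesticult medium and were untreated, and stranded mRNA libraries were sequenced. WT organoids (4 libraries) carried the floxed alleles ATG16L1flox/flox_RNaseH2Bflox/flox and no Cre recombinase. Rnaseh2bΔIEC organoids (2 libraries) were RNaseH2Bflox/flox VillinCre+/-, and Atg16l1ΔIEC organoids (4 libraries) were ATG16L1flox/flox VillinCre+/-. Atg16l1/Rnaseh2bΔIEC organoids (4 libraries) carried both floxed genes together with VillinCre+/-. Villin-Cre is active in the intestinal epithelium, which is what these cultures consist of, and the WT group lacks Cre as well as the deletions, so an effect of Cre itself cannot be told apart from that of a deletion. The study compared these genotypes to ask how loss of ATG16L1 changes an epithelium that lacks RNase H2, the enzyme that removes ribonucleotides from DNA.

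Autophagy wraps cytoplasm in a double membrane and delivers it to the lysosome. The ULK1 kinase complex starts the process, the class III PI3-kinase complex marks the membrane with PI3P, ATG9 vesicles and ATG2 lipid channels enlarge it, and the ATG12-ATG5-ATG16L1 complex couples ATG8 proteins such as LC3 and GABARAP to its lipids. In the intestinal epithelium, and in Paneth cells above all, ATG16L1 is best known as the product of a Crohn's disease susceptibility gene.

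Library structure bears on every value below. All WT libraries came from sequencing lane 1 and all libraries of both single knockouts from lane 2, while the Atg16l1/Rnaseh2bΔIEC libraries 1 and 2 came from lane 2 and 3 and 4 from lane 1. Libraries 1 and 2 of a genotype deviated together from its mean, as did 3 and 4, with correlations across genes from 0.41 to 0.86, and by Xist and Y-linked genes each such pair was of the same sex. The Rnaseh2bΔIEC libraries form a single male pair. Nothing states that the libraries of a pair came from separate animals, so p-values measure the spread between libraries, which may be technical. Single knockouts and WT share no lane, so lane and genotype can be separated in those comparisons only through the Atg16l1/Rnaseh2bΔIEC libraries, where lane, pair and sex coincide. Values with a lane term therefore stand beside many of the main ones, and the calls that held with each pair as a random effect are listed after the counts.

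The deleted genes came first. Atg16l1, which recruits the conjugation machinery to the membrane, lies on chromosome 1 of GRCm38 from 87755870 to 87792428. It was at 9.43, 9.54, 9.44 and 9.44 in WT and at 9.52 and 9.53 in Rnaseh2bΔIEC libraries, on the log2 scale of the deposited values. It was at 6.87, 7.35, 6.75 and 6.74 in Atg16l1ΔIEC and at 8.37, 8.14, 8.57 and 8.47 in Atg16l1/Rnaseh2bΔIEC libraries. Libraries of WT, Atg16l1ΔIEC and Atg16l1/Rnaseh2bΔIEC do not overlap, and the double knockout, Atg16l1/Rnaseh2bΔIEC, lies between the others. Against WT the log2 difference was -2.54 (95% interval -2.80 to -2.28, limma adjusted p = 1.6e-07) in Atg16l1ΔIEC, or 0.172-fold. In Atg16l1/Rnaseh2bΔIEC organoids it was -1.07 (-1.33 to -0.81, limma adjusted p = 0.00032), or 0.475-fold. The difference between these genotypes was 1.46 (1.20 to 1.72, limma adjusted p = 2e-05). Rnaseh2b fell by 1.36 in Rnaseh2bΔIEC and by 0.73 in Atg16l1/Rnaseh2bΔIEC organoids (limma adjusted p of 3.5e-06 and 0.00019), and the double knockout was 0.63 above the single (limma adjusted p = 0.00074). Both deleted genes thus had more RNA in the double than in the single knockout. Why was not tested, and the share of cells that had recombined was not measured here. Comparisons of the double with a single knockout, and the interaction, therefore set groups of unequal loss of these RNAs against each other. Values per gene cover all exons, and the deleted exons were not analysed here.

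Counts of autophagy genes past an adjusted p of 0.05 were close to those of all genes in most comparisons. In Rnaseh2bΔIEC against WT, 6 of the 45 genes were higher (13.3%) and 4 lower (8.89%), against 14.4% and 12.3% of all genes tested. In Atg16l1ΔIEC against WT, 4 were higher and 4 lower (8.89% each), against 8.73% and 10.4%. In Atg16l1/Rnaseh2bΔIEC against WT, 2 were higher (4.44%) and 8 lower (17.8%), against 8.1% and 8.01%. The lower share was above the background only in this last comparison among the 3 against WT, and with pairs as a random effect limma called 0 genes there, although 10 passed an unadjusted p of 0.05. The median absolute log2 difference of the 45 genes was 0.09, 0.08 and 0.08 in these comparisons, beside 0.11, 0.08 and 0.08 over all genes.

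Against Rnaseh2bΔIEC, the double knockout had 3 genes higher (6.67%) and 8 lower (17.8%), beside 11.1% and 14.4% of all genes. Against Atg16l1ΔIEC it had 3 higher (6.67%) and 6 lower (13.3%), beside 12.6% and 12.5%. The interaction, which is the effect of Rnaseh2b deletion in Atg16l1-deleted organoids minus its effect in Atg16l1-intact organoids, was positive for 7 genes (15.6%) and negative for 9, beside 17% and 18.1%. These comparisons share libraries, so their counts are not independent. In all, 25 of the 45 genes were called in at least 1 of the 6 comparisons and 20 in none. The matching share over all genes was not computed, so whether 25 is many or few cannot be said.

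With each pair as a random effect, few of these calls held. They were Atg2b, Atg101, Map1lc3b and Tax1bp1 in Rnaseh2bΔIEC against WT, Atg9a and Atg2b in Atg16l1ΔIEC against WT, Atg9a between the double knockout and Atg16l1ΔIEC, and the interactions of Atg2b, Atg9a, Map1lc3b, Tax1bp1 and Wipi2. Every other call of the 45 genes given below was lost in that fit, including all calls of the double knockout against WT and against Rnaseh2bΔIEC.

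**Figure D1:**
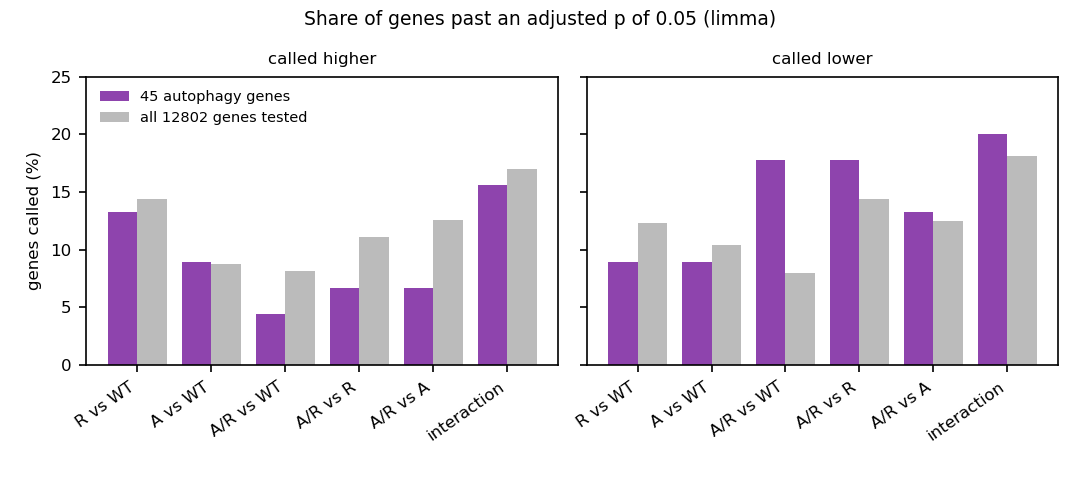
Percent of genes called higher (left) and lower (right) at a limma adjusted p of 0.05 in each of 6 comparisons, for the 45 autophagy genes (purple) and all 12802 genes tested (grey). WT, wild type; R, Rnaseh2bΔIEC; A, Atg16l1ΔIEC; A/R, Atg16l1/Rnaseh2bΔIEC. The bars are furthest apart for lower genes in A/R against WT, at 17.8% and 8.01%, and the purple bars are the shorter ones for higher genes in all comparisons of A/R.

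Levels were compared between genes per kilobase of exon, as log2 values. Gabarap was the highest at 11.76, followed by the cargo receptor Sqstm1 at 10.69 and the membrane protein gene Vmp1 at 10.13. Atg16l2, a paralogue of Atg16l1, was the lowest at 4.85, and Atg16l1 itself, averaged over all genotypes, stood at 5.17. Among ATG8 genes the order was Gabarap, Gabarapl1 (8.34), Map1lc3a (7.22), Map1lc3b (6.87) and Gabarapl2 (6.30). The length used was that of all annotated exons of a gene merged, 1181 bases for Map1lc3a and 7517 for Map1lc3b. Before this division Map1lc3b was the higher of the pair, at a mean of 9.778 against 7.465. The order thus depends on annotated length and need not be that of transcript abundance.

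**Figure D2:**
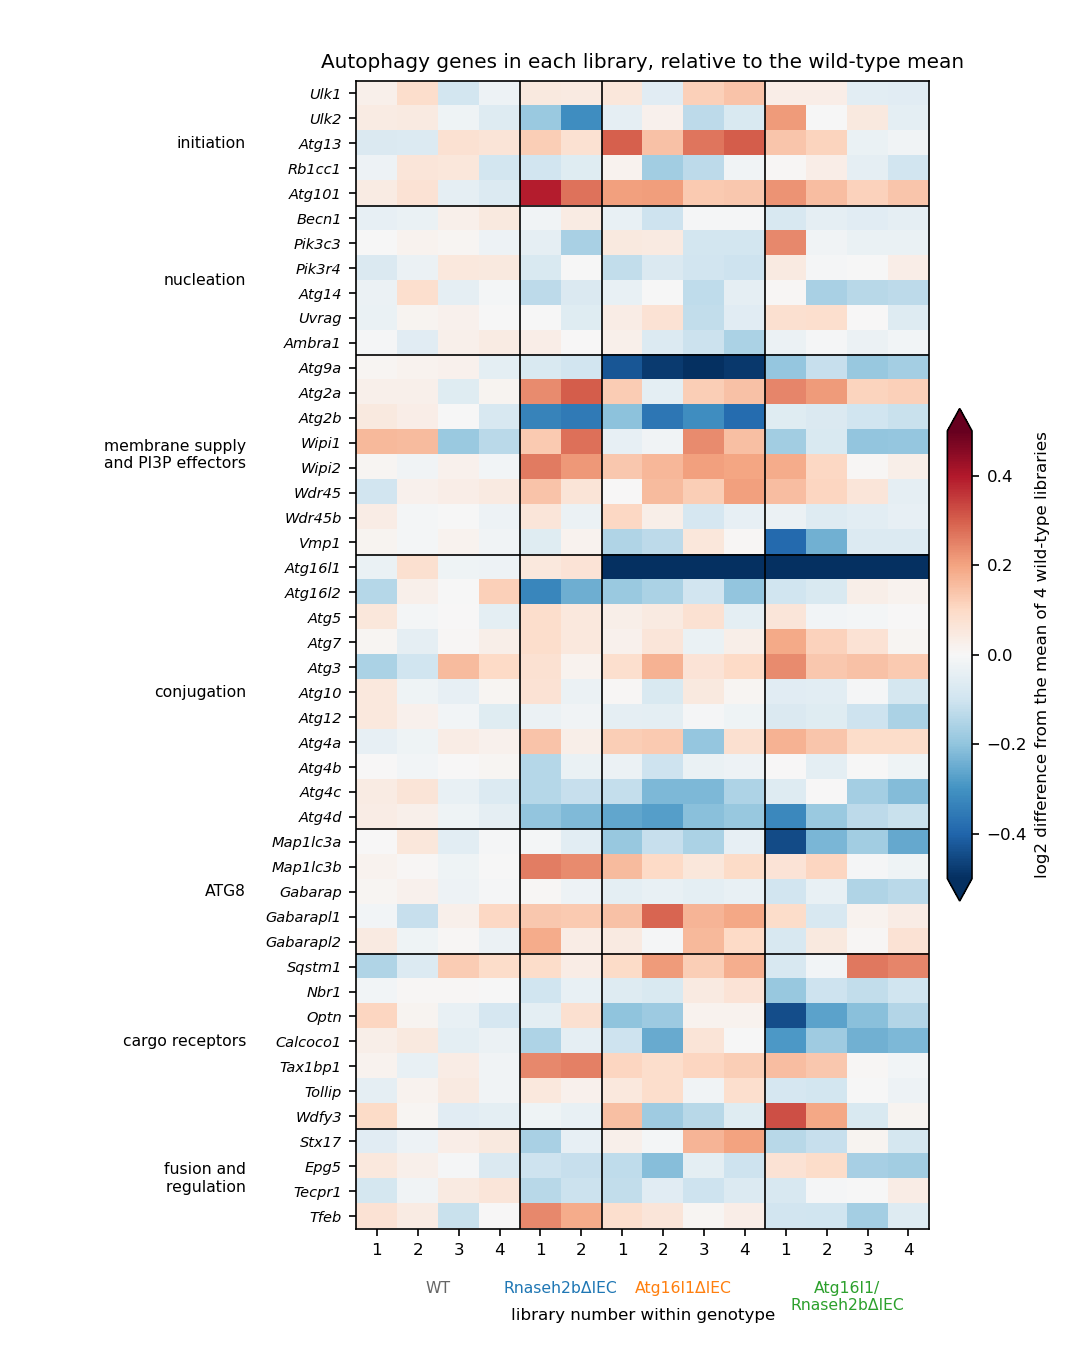
Log2 difference of each of the 46 genes (rows, by step) from the mean of the 4 WT libraries, for each of the 14 libraries (columns). Colours are limited to -0.5 and 0.5, so Atg16l1 in its knockouts exceeds the scale. Atg9a is low in all Atg16l1ΔIEC libraries, Atg2b in both single knockouts, and libraries 1 and 2 resemble each other more than they do 3 and 4 in rows such as Sqstm1 and Wipi1.

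The initiation complex holds the kinases Ulk1 and Ulk2, the scaffold Rb1cc1 and the subunits Atg13 and Atg101. Of these 5 genes, Atg101 was called in all 3 comparisons with WT and always higher, while Ulk1 and Rb1cc1 were called in none of the 6 comparisons. Atg101, which stabilises Atg13 in the complex, was at 8.94, 8.98, 8.86 and 8.84 in WT and at 9.30 and 9.18 in Rnaseh2bΔIEC libraries. It was at 9.11, 9.11, 9.03 and 9.04 in Atg16l1ΔIEC and at 9.13, 9.06, 9.02 and 9.04 in Atg16l1/Rnaseh2bΔIEC libraries. Every knockout library was above every WT library. The difference from WT was 0.33 (0.21 to 0.45, limma adjusted p = 0.0012), 0.17 (0.07 to 0.27, limma adjusted p = 0.019) and 0.16 (0.06 to 0.26, limma adjusted p = 0.032). With a lane term, it was 0.27 in Rnaseh2bΔIEC (limma adjusted p = 0.049), but 0.11 and 0.13 in the other genotypes, where the call was lost (limma adjusted p of 0.36 and 0.14). The interaction of Atg101 was -0.34 (limma adjusted p = 0.0028), and the double knockout was below Rnaseh2bΔIEC by 0.17 (limma adjusted p = 0.035). Both calls were lost with a lane term (limma adjusted p of 0.13 and 0.1) and with pairs as a random effect (0.058 and 0.26), and the second also when any 1 of 5 libraries was left out.

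Atg13, the regulatory subunit that mTORC1 phosphorylates, rose in Atg16l1ΔIEC alone among the knockouts tested against WT. Its values were 9.07, 9.07, 9.22 and 9.21 in WT, 9.44, 9.29, 9.41 and 9.45 in Atg16l1ΔIEC and 9.28, 9.25, 9.11 and 9.13 in Atg16l1/Rnaseh2bΔIEC libraries. The Atg16l1ΔIEC libraries were above all others of these groups. The difference from WT was 0.26 (limma adjusted p = 0.0068), and the double knockout was 0.21 below Atg16l1ΔIEC (limma adjusted p = 0.017). In the fit with lane, the first became 0.11 (limma adjusted p = 0.41), and the interaction moved from -0.30 to -0.08.

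Ulk2 went the other way from Atg101 in Rnaseh2bΔIEC organoids. It was at 8.50 and 8.38 there, against 8.73, 8.73, 8.67 and 8.62 in WT and 8.90, 8.68, 8.74 and 8.64 in Atg16l1/Rnaseh2bΔIEC libraries. Neither of these groups overlapped with Rnaseh2bΔIEC. Ulk2 was lower by 0.25 against WT (limma adjusted p = 0.023) and higher by 0.30 in the double knockout than in Rnaseh2bΔIEC (limma adjusted p = 0.0095). Both calls held with a lane term (-0.35 and 0.35, limma adjusted p of 0.046 and 0.0077) and neither with pairs as a random effect (limma adjusted p of 0.25 and 0.17). Ulk1, the main kinase, gave 0.05 (-0.08 to 0.17), 0.07 (-0.04 to 0.17) and -0.01 (-0.11 to 0.09) against WT in the order Rnaseh2bΔIEC, Atg16l1ΔIEC and double knockout.

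The class III PI3-kinase genes Becn1, Pik3c3, Pik3r4, Atg14, Uvrag and Ambra1 gave no call against WT in any of the 3 knockouts by limma. Over all genes tested, 14.4%, 8.73% and 8.1% were called higher and 12.3%, 10.4% and 8.01% lower, so few calls would be looked for among 6 genes. At an unadjusted p of 0.05, 0, 1 and 0 of the 6 passed. Their differences from WT ranged from -0.11 to 0.04 over all 3 comparisons. Becn1, the scaffold of the complex, gave 0.01 (-0.07 to 0.09), -0.04 (-0.10 to 0.03) and -0.06 (-0.12 to 0.01). These intervals treat the libraries of a pair as independent. With pairs as a random effect the limma standard errors rose from 0.0376, 0.0307 and 0.0307 to 0.0581, 0.0475 and 0.0475. Of Becn1's exon bases, 43.9% overlap Cntd1 on the opposite strand, and whether the counting used strand is not given in the sources used here. Pik3r4, the regulatory kinase-like subunit, was higher in the double knockout than in Atg16l1ΔIEC by 0.12 (limma adjusted p = 0.032), and without any single library of 6 in turn that call was lost.

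In the supply of membrane, Atg9a and Atg2b had the lowest adjusted p-values of the 45 genes. Atg9a encodes the scramblase that seeds the autophagosome from Golgi-derived vesicles, and it lies on chromosome 1 from 75180860 to 75192196. Atg16l1, Atg4b and Rb1cc1 lie on the same chromosome, and the last pair was called in none of the 6 comparisons. Its values were 9.96, 9.97, 9.97 and 9.90 in WT, 9.87 and 9.85 in Rnaseh2bΔIEC, 9.52, 9.47, 9.41 and 9.47 in Atg16l1ΔIEC and 9.76, 9.84, 9.76 and 9.78 in Atg16l1/Rnaseh2bΔIEC libraries. The 4 genotypes do not overlap, with Atg16l1ΔIEC the lowest, the double knockout next and Rnaseh2bΔIEC just below WT.

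Against WT, Atg9a differed by -0.48 (-0.55 to -0.41, limma adjusted p = 2.7e-06) in Atg16l1ΔIEC and by -0.17 (-0.24 to -0.09, limma adjusted p = 0.0073) in Atg16l1/Rnaseh2bΔIEC organoids. In Rnaseh2bΔIEC the difference was -0.09 and was not called. The double knockout was above Atg16l1ΔIEC by 0.32 (0.24 to 0.39, limma adjusted p = 9.8e-05), and the interaction was 0.40 (limma adjusted p = 0.00017). Allowing for lane, these values became -0.51, -0.18, 0.33 and 0.44, all still called. Within lane 2 alone, the double knockout exceeded Atg16l1ΔIEC by 0.33 (limma adjusted p = 0.0049), and within lane 1 it lay 0.18 below WT (limma adjusted p = 0.025). With pairs as a random effect the difference in Atg16l1ΔIEC had a limma adjusted p of 0.00054, and that of the double knockout from WT was lost (0.19). Gm29253, a processed transcript on the same strand that was not in the table, shares 31.8% of the exon bases of Atg9a.

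Atg2b, which with Atg2a forms the bridges that carry lipid from the endoplasmic reticulum to the growing membrane, fell in both single knockouts. It was at 11.01, 10.99, 10.95 and 10.88 in WT, 10.62 and 10.60 in Rnaseh2bΔIEC, and 10.75, 10.60, 10.64 and 10.57 in Atg16l1ΔIEC libraries. In Atg16l1/Rnaseh2bΔIEC libraries it was at 10.90, 10.88, 10.86 and 10.85. Neither single knockout overlapped with WT or with the double knockout, whose range overlapped with that of WT.

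The differences of Atg2b from WT were -0.34 (-0.45 to -0.24, limma adjusted p = 0.00038) in Rnaseh2bΔIEC and -0.32 (-0.40 to -0.23, limma adjusted p = 0.00022) in Atg16l1ΔIEC. In the double knockout the difference was -0.09 and was not called, and the gene was 0.26 above Rnaseh2bΔIEC and 0.23 above Atg16l1ΔIEC (limma adjusted p of 0.0026 and 0.0017). Its interaction of 0.57 (0.44 to 0.71, limma adjusted p = 4.8e-05) was the largest of the 45 genes. Adjusted for lane, the 5 calls held, and with pairs as a random effect those against WT and the interaction held (limma adjusted p of 0.025, 0.02 and 0.0049).

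Atg2a did not follow its paralogue. It was at 9.51, 9.51, 9.43 and 9.50 in WT, at 9.72 and 9.79 in Rnaseh2bΔIEC and at 9.73, 9.70, 9.60 and 9.61 in Atg16l1/Rnaseh2bΔIEC libraries, with no overlap between either knockout and WT. It rose by 0.27 in Rnaseh2bΔIEC (limma adjusted p = 0.006) and by 0.17 in the double knockout (limma adjusted p = 0.032). Both calls were lost with a lane term (0.15 and 0.11, limma adjusted p of 0.23 and 0.19).

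The PROPPIN proteins bind PI3P on the young membrane, and WIPI2 recruits ATG16L1 to it. Wipi2 was at 10.48, 10.45, 10.49 and 10.45 in WT and at 10.73 and 10.68 in Rnaseh2bΔIEC, 10.60, 10.63, 10.67 and 10.66 in Atg16l1ΔIEC and 10.65, 10.57, 10.47 and 10.50 in Atg16l1/Rnaseh2bΔIEC libraries. Both single knockouts were above WT without overlap, and within the double knockout the lane 2 libraries were higher than the lane 1 libraries. The differences of the single knockouts were 0.24 and 0.17 (limma adjusted p of 0.0026 and 0.0064). With a lane term, they were 0.11 and 0.05 and no longer called.

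Wipi1, which also binds PI3P, was at 9.91 and 9.91 in the male WT libraries and at 9.56 and 9.62 in the female ones. It was at 9.88 and 10.02 in Rnaseh2bΔIEC, 9.71, 9.73, 9.98 and 9.90 in Atg16l1ΔIEC and 9.58, 9.67, 9.55 and 9.56 in the double knockout. The double knockout lay below both single knockouts, while WT spanned 9.56 to 9.91. It was called 0.36 lower in the double knockout than in Rnaseh2bΔIEC (limma adjusted p = 0.023), and the interaction was -0.44 (limma adjusted p = 0.022). Neither was called with a lane term (limma adjusted p of 0.061 and 0.29) or with pairs as a random effect (0.1 and 0.087), while among male libraries alone the first was -0.33 (limma adjusted p = 0.002). The male fit holds a single pair of libraries per genotype, so its p-value measures only the spread within pairs. Wdr45, Wdr45b and Vmp1, the other members of this step, were called in none of the 6 comparisons. With a lane term Vmp1 was lower in the double knockout than in Rnaseh2bΔIEC and Atg16l1ΔIEC by 0.29 and 0.26 (limma adjusted p of 0.0079 and 0.0058).

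**Figure D3:**
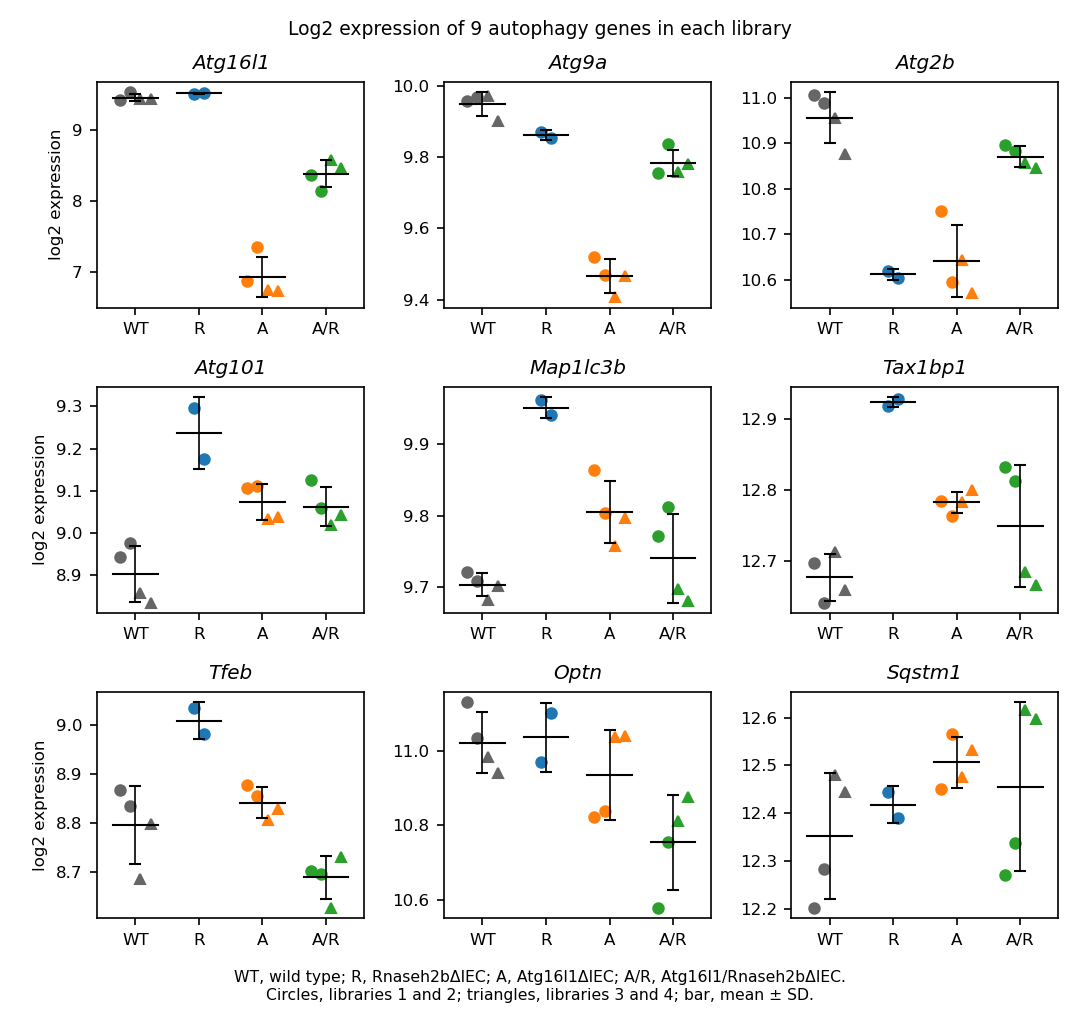
Deposited log2 expression of 9 autophagy genes in each library, by genotype (WT; R, Rnaseh2bΔIEC, 2 libraries; A, Atg16l1ΔIEC; A/R, Atg16l1/Rnaseh2bΔIEC; 4 libraries each where not stated). Circles are libraries 1 and 2, triangles 3 and 4, and bars the mean ± SD; the vertical axes do not start at 0. Atg9a separates into 4 levels, Atg2b is low in both single knockouts, and Sqstm1 splits by library pair in WT and in the double knockout.

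The conjugation step holds the ubiquitin-like systems around ATG12, ATG5, ATG7, ATG3 and ATG10 and the ATG4 proteases. Among its 10 genes other than Atg16l1, 2 were called in each knockout against WT, all of them lower, beside 12.3%, 10.4% and 8.01% of all genes. The E1-like enzyme gene Atg7 and Atg5, whose product is the partner of ATG16L1 in the complex, were called in none of the 6 comparisons. Atg5 was at 10.39, 10.32, 10.33 and 10.28 in WT and at 10.36, 10.38, 10.41 and 10.28 in Atg16l1ΔIEC libraries, 2 ranges that overlap almost fully. Its differences from WT were 0.07 (-0.02 to 0.16), 0.03 (-0.05 to 0.10) and 0.01 (-0.07 to 0.08). Those of Atg7 were 0.07 (-0.04 to 0.18), 0.02 (-0.07 to 0.11) and 0.10 (0.01 to 0.19, limma adjusted p = 0.13). With a lane term Atg7 was called higher in the double knockout than in Atg16l1ΔIEC. Atg12 was lower by 0.10 in the double knockout (limma adjusted p = 0.048), a call lost when any 1 of 7 libraries was left out in turn. That call held with a lane term and was lost with pairs as a random effect (limma adjusted p = 0.34).

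Atg16l2, whose product resembles ATG16L1 but is not known to replace it in canonical autophagy, was lower in Rnaseh2bΔIEC and not higher in Atg16l1ΔIEC. It was at 7.88, 8.05, 8.02 and 8.14 in WT, 7.70 and 7.78 in Rnaseh2bΔIEC, 7.84, 7.87, 7.93 and 7.83 in Atg16l1ΔIEC and 7.92, 7.95, 8.05 and 8.04 in the double knockout. The Rnaseh2bΔIEC libraries were below all others. The difference from WT was -0.29 (-0.44 to -0.13, limma adjusted p = 0.01), and the double knockout was 0.25 higher (limma adjusted p = 0.02). In Atg16l1ΔIEC the difference was -0.16 and was not called. In the fit with lane, the calls were lost (-0.17 and 0.20, limma adjusted p of 0.27 and 0.072).

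Of the 4 ATG4 protease genes, which trim and later release ATG8 proteins, Atg4d was lower in all 3 knockouts. It was at 11.12, 11.11, 11.06 and 11.04 in WT, while knockout libraries ran from 10.76 to 10.98. No knockout library reached the WT range. The differences were -0.21, -0.23 and -0.19 (limma adjusted p of 0.011, 0.0025 and 0.012), but -0.07, -0.10 and -0.12 with a lane term, with no call. Of its exon bases, 19.3% overlap Kri1 on the opposite strand. Atg4c was lower by 0.18 in Atg16l1ΔIEC (limma adjusted p = 0.032) and by 0.34 in the fit with lane (limma adjusted p = 0.014). That call was lost with pairs as a random effect (limma adjusted p = 0.26) and in 6 of the fits that left out a library. The fit with lane also called Atg4c lower than WT in Rnaseh2bΔIEC and in the double knockout, and its interaction positive. Atg3, Atg10, Atg4a and Atg4b were called in none of the 6 comparisons.

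The 5 ATG8 genes did not move together. Map1lc3b, which encodes the LC3B protein used as an autophagosome marker, was at 9.72, 9.71, 9.68 and 9.70 in WT and at 9.96 and 9.94 in Rnaseh2bΔIEC libraries. It was at 9.86, 9.80, 9.76 and 9.80 in Atg16l1ΔIEC and at 9.77, 9.81, 9.70 and 9.68 in the double knockout, so that the Rnaseh2bΔIEC libraries stood above all others. The difference from WT was 0.25 (0.15 to 0.34, limma adjusted p = 0.0017), the double knockout lay 0.21 below Rnaseh2bΔIEC (limma adjusted p = 0.0046), and the interaction was -0.31 (limma adjusted p = 0.0012). With pairs as a random effect the first and the last held (limma adjusted p of 0.042 and 0.029). Allowing for lane, they were 0.14 and -0.16 and not called, while the difference between double knockout and Rnaseh2bΔIEC, at -0.16, was (limma adjusted p = 0.015).

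Map1lc3a was lowest in the double knockout, at 7.14, 7.36, 7.41 and 7.33 against 7.59, 7.64, 7.53 and 7.58 in WT and 7.58 and 7.53 in Rnaseh2bΔIEC. The ranges did not overlap, and the differences were -0.28 (limma adjusted p = 0.01) and -0.25 (limma adjusted p = 0.026). In the fit with lane the first lost its call (-0.22, limma adjusted p = 0.059) and the second kept it (-0.31, limma adjusted p = 0.014). Gabarapl1 rose in Atg16l1ΔIEC, from 9.26, 9.15, 9.30 and 9.38 in WT to 9.42, 9.56, 9.44 and 9.47, a difference of 0.20 (limma adjusted p = 0.017). It was 0.18 lower in the double knockout than in Atg16l1ΔIEC (limma adjusted p = 0.022). A lane term removed the first call (limma adjusted p = 0.12) but not the second (0.036). A transcript on the opposite strand, 1700101I11Rik, covers 28.3% of its exon bases. Gabarap, the most abundant, was lower by 0.11 in the double knockout (limma adjusted p = 0.022, and 0.0066 with a lane term). Gabarapl2 gave 0.11, 0.08 and 0.01 against WT and was called in none of the 6 comparisons.

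Cargo receptors link ubiquitinated or damaged material to ATG8 proteins. In the double knockout, 3 of these 7 genes were called against WT, namely Optn, Calcoco1 and Nbr1, and all 3 were lower, beside 8.01% of all genes. Optn, a receptor in mitophagy and in the capture of bacteria, was at 11.13, 11.03, 10.98 and 10.94 in WT and at 10.58, 10.76, 10.81 and 10.88 in the double knockout. The highest double knockout library was below the lowest WT library, but lane 2 libraries of the double knockout were lower than those of lane 1. The differences from WT of Optn, Calcoco1 and Nbr1 were -0.27, -0.23 and -0.13 (limma adjusted p of 0.024, 0.027 and 0.028). Adjusted for lane, they were -0.18, -0.23 and -0.11 and none was called (limma adjusted p of 0.15, 0.074 and 0.11), nor was any with pairs as a random effect (0.2, 0.26 and 0.25). Within lane 1, Calcoco1 and Nbr1 were called (limma adjusted p of 0.034 and 0.035). Against Rnaseh2bΔIEC, Optn was lower by 0.28, and by 0.37 in the fit with lane (limma adjusted p of 0.029 and 0.01). Wdfy3 was called in none of the 6 comparisons and Tollip in 2. With a lane term Wdfy3 was higher in the double knockout than in Rnaseh2bΔIEC and Atg16l1ΔIEC by 0.29 and 0.31 (limma adjusted p of 0.034 and 0.011).

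Tax1bp1, a receptor for ubiquitinated cargo, rose in Rnaseh2bΔIEC. It was at 12.70, 12.64, 12.71 and 12.66 in WT, 12.92 and 12.93 in Rnaseh2bΔIEC, and between 12.76 and 12.80 in Atg16l1ΔIEC libraries. In the double knockout it was at 12.83 and 12.81 in lane 2 and at 12.69 and 12.67 in lane 1. The Rnaseh2bΔIEC libraries were above all others. The difference from WT was 0.25 (limma adjusted p = 0.0022, and 0.032 with pairs as a random effect), the double knockout lay 0.17 below Rnaseh2bΔIEC (limma adjusted p = 0.015), and the interaction was -0.28 (limma adjusted p = 0.003). With a lane term, the difference from WT was 0.10 (limma adjusted p = 0.16).

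Sqstm1 encodes p62, the receptor whose protein builds up when autophagy fails. Its RNA was at 12.20, 12.28, 12.48 and 12.45 in WT, 12.45 and 12.39 in Rnaseh2bΔIEC, 12.45, 12.57, 12.48 and 12.53 in Atg16l1ΔIEC and 12.27, 12.34, 12.62 and 12.60 in the double knockout. All knockouts overlapped with WT, and libraries 3 and 4 were above 1 and 2 in WT and the double knockout. In both, libraries 3 and 4 are the female ones, and the WT libraries all came from lane 1. The female mean exceeded the male by 0.22 in WT and 0.301 in the double knockout, but by 0.003 in Atg16l1ΔIEC. The differences from WT were 0.06 (-0.14 to 0.27), 0.15 (-0.02 to 0.32) and 0.10 (-0.07 to 0.27), and none was called (limma adjusted p of 0.65, 0.19 and 0.39). In the fit with lane, the differences from WT were 0.37, 0.45 and 0.25 and all were called (limma adjusted p of 0.034, 0.0094 and 0.028). That fit takes lane from the double knockout, where lane, pair and sex coincide, so it cannot tell them apart. Within lane 1 the double knockout was not called (0.25, limma adjusted p = 0.085). Among male libraries alone the values were 0.17, 0.26 and 0.06, the first and second called (limma adjusted p of 0.011 and 0.0019). Male libraries are a single pair per genotype, so those p-values measure only the spread within pairs. The male WT pair is from lane 1 and the male knockout pairs are from lane 2. Mrnip, on the opposite strand, shares 17.3% of the exon bases.

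**Figure D4:**
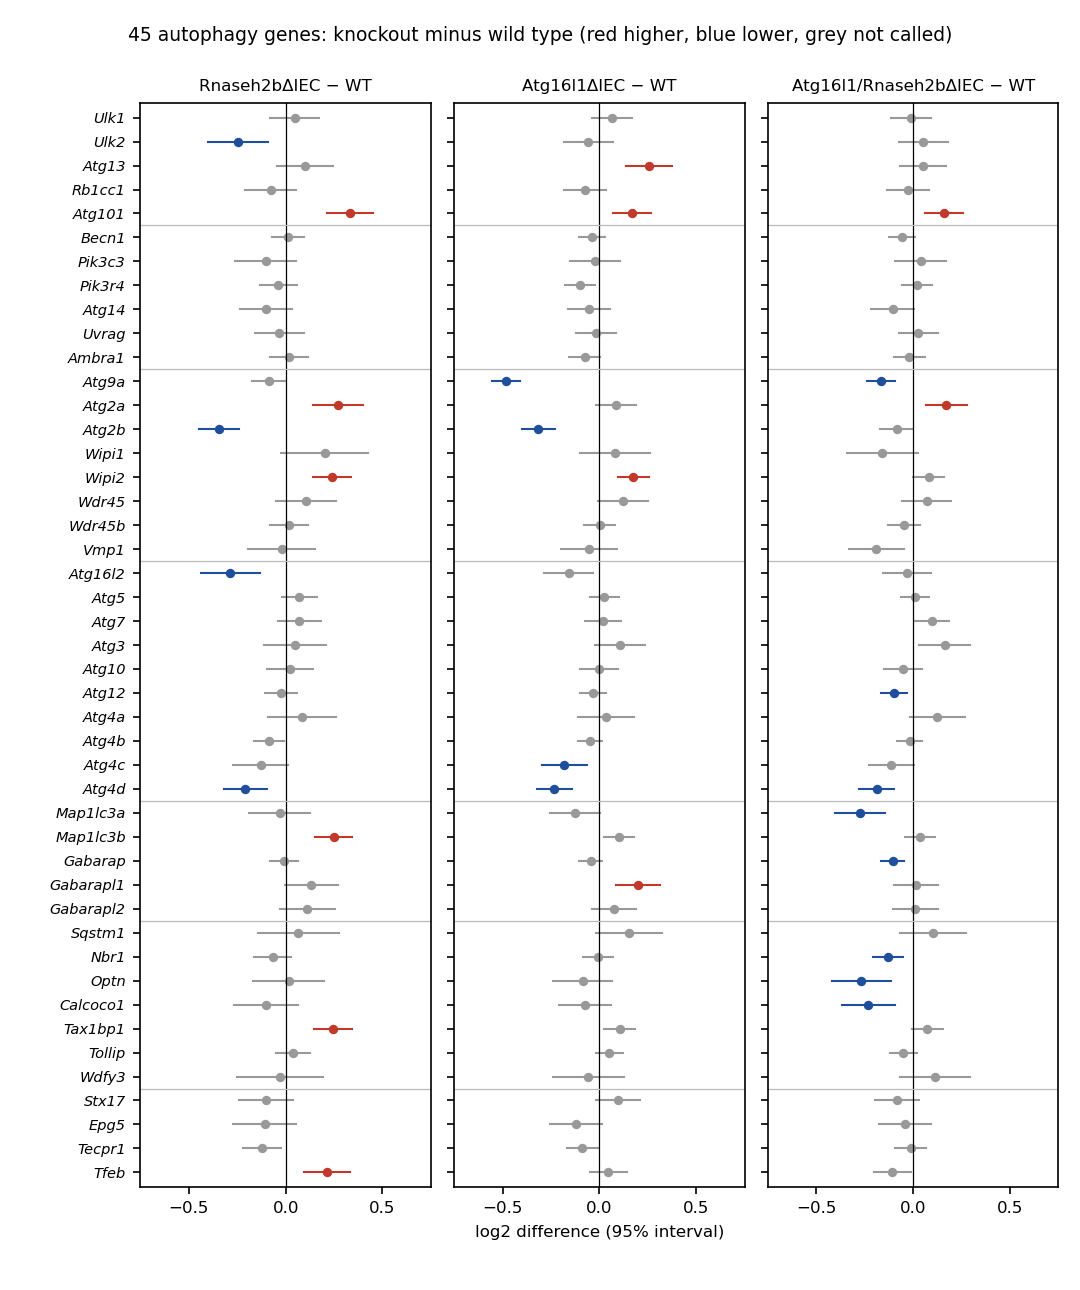
Log2 difference from WT with its 95% interval for the 45 autophagy genes, grouped by step from initiation at the top to fusion and regulation at the bottom, in Rnaseh2bΔIEC (left), Atg16l1ΔIEC (middle) and Atg16l1/Rnaseh2bΔIEC (right). Red points were called higher and blue points lower at a limma adjusted p of 0.05. Calls number 10, 8 and 10 of the 45 genes, beside 3424, 2450 and 2063 of all 12802 genes tested. The 6 nucleation genes have none.

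Fusion and regulation covered the SNARE gene Stx17, the tether genes Epg5 and Tecpr1 and Tfeb, a transcription factor for autophagy and lysosomal genes. Tfeb was at 8.87, 8.84, 8.68 and 8.80 in WT, 9.04 and 8.98 in Rnaseh2bΔIEC, 8.88, 8.86, 8.81 and 8.83 in Atg16l1ΔIEC and 8.70, 8.70, 8.63 and 8.73 in the double knockout. Rnaseh2bΔIEC libraries were above all others, and those of the double knockout below both single knockouts. The rise in Rnaseh2bΔIEC was 0.21 (limma adjusted p = 0.013), the double knockout was 0.32 below Rnaseh2bΔIEC and 0.15 below Atg16l1ΔIEC (limma adjusted p of 0.0017 and 0.026), and the interaction was -0.37 (limma adjusted p = 0.0019). Allowing for lane, only the difference of -0.31 from Rnaseh2bΔIEC was called (limma adjusted p = 0.0051). Within lane 2, where both groups have libraries, it was also -0.31 (limma adjusted p = 0.01). With pairs as a random effect all 4 calls were lost (limma adjusted p of 0.18, 0.054, 0.26 and 0.056). Stx17 was lower by 0.18 in the double knockout than in Atg16l1ΔIEC (limma adjusted p = 0.027), Tecpr1 was called only in the interaction (0.20), and Epg5 in none of the 6 comparisons. With a lane term Epg5 was called in all 6, at -0.36, -0.37 and -0.17 against WT (limma adjusted p of 0.0092, 0.0054 and 0.04), 0.19 and 0.20 in the double knockout above Rnaseh2bΔIEC and Atg16l1ΔIEC (0.024 and 0.0083) and 0.56 in the interaction (0.004).

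TFEB and its relatives bind E-boxes of the letters CACGTG, so the promoters were searched for them. The RefSeq table (GRCm38.p6, 250 bases before to 50 after each start) held 45 promoters of 37 of the 46 genes. CACGTG, which reads the same on both strands, was found in 4 of these promoters (8.89%), beside 7.15% of all 32851 promoters. The longer TCACGTGA, which contains it and is likewise its own reverse complement, was found in 1 (2.22%, beside 0.97%). The 5 matches are shown with 12 bases on each side, 5′ to 3′ on the gene's strand with the E-box in capitals, since they are the letters a TFEB site would need.
Atg3, chr16:45158723-45158752, plus strand: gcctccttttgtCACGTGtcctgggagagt
Atg3, chr16:45158746-45158775, plus strand: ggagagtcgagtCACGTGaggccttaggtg
Atg5, chr10:44268313-44268342, plus strand: cggagcgcttgcCACGTGgtcttggtgacg
Atg7, chr6:114670952-114670981, plus strand: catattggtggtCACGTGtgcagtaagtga
Atg14, chr14:47568418-47568447, minus strand: aaaacaaaatccCACGTGactggccctgag
The E-box began 94 and 71 bases before the start in Atg3, the second being the longer form, and 14, 132 and 1 bases before it in Atg5, Atg7 and Atg14. For Atg3, Atg7 and Atg14 that RefSeq start lies inside the GENCODE gene. These genes run from 45158785 to 45188538 on chromosome 16, from 114643097 to 114860614 on chromosome 6 and from 47540893 to 47570649 on chromosome 14. In the main fit, Atg3, Atg5, Atg7 and Atg14 were called in none of the 6 comparisons, Tfeb in 4. Some of the other fits called Atg3 or Atg7, such as that of male libraries alone. A match is a description of letters and not a bound site.

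**Figure D5:**
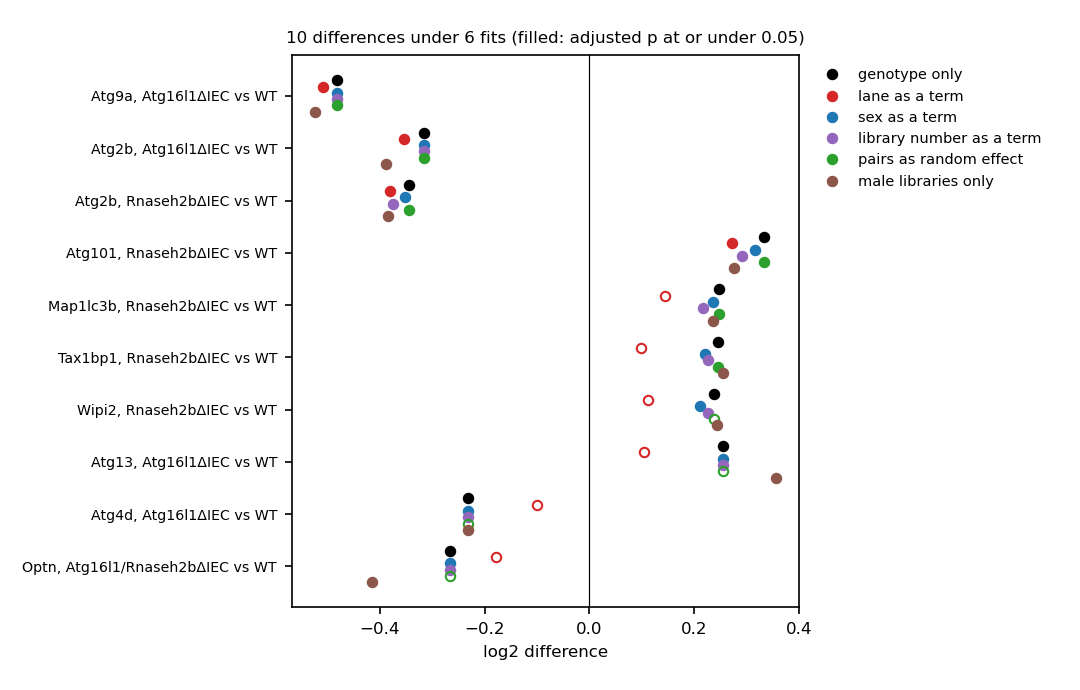
Log2 differences of 10 gene and genotype pairs under 6 fits (colours), with filled points where the limma adjusted p was at or under 0.05. The Atg9a, Atg2b and Atg101 points stay filled in all 6, while those of Map1lc3b, Tax1bp1, Wipi2, Atg13, Atg4d and Optn lie nearer 0 and open once lane is a term.

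Other genes of the pathway were counted from lists of 68 genes, of which 64 were tested. Among the 64, 14 were higher and 13 lower in Rnaseh2bΔIEC, 6 and 9 in Atg16l1ΔIEC and 3 and 4 in the double knockout, all against WT. These are 21.9% and 20.3%, 9.38% and 14.1%, and 4.69% and 6.25%, beside 14.4% and 12.3%, 8.73% and 10.4%, and 8.1% and 8.01% of all genes. Of 23 genes for mTORC1 and its inputs, 10, 5 and 3 were called, of 7 AMPK genes 2, 0 and 1, and of 12 fusion genes 4, 2 and 2. Of 14 organelle receptor genes, 6, 5 and 1 were called, of 6 regulators of the PI3-kinase complex 3, 2 and 0, and of the pair Tfe3 and Zkscan3, a repressor of autophagy genes, 2, 1 and 0. Mtor itself, the kinase that holds autophagy in check, was not called against WT in any knockout. For AMPK in Atg16l1ΔIEC and for the lists without a call in the double knockout, differences ran from -0.28 to 0.13 and from -0.06 to 0.12, with 4 AMPK genes and 1 gene of each of the other lists at an unadjusted p under 0.05.

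Cell type markers moved with the genotypes too, and their part in the differences above was not tested. In bulk RNA, fewer cells of a type and less RNA per cell cannot be told apart. Of 8 enterocyte genes, 7 were higher in Rnaseh2bΔIEC than in WT and 7 lower in the double knockout than in Rnaseh2bΔIEC, the contrasts in which Map1lc3b, Tax1bp1 and Tfeb were called. Their summed level was 17.71 to 17.88 in Rnaseh2bΔIEC, 16.54 to 17.19 in WT, 16.67 to 17.49 in Atg16l1ΔIEC and 16.30 to 16.85 in the double knockout, as log2 of the sum. All 5 stem cell genes were lower in Atg16l1ΔIEC than in WT, the contrast of Atg9a, with summed levels of 13.85 to 14.11 and 14.48 to 14.66, and the sums of Rnaseh2bΔIEC and the double knockout were 14.04 to 14.11 and 14.29 to 14.58. Goblet genes were lower in both single knockouts (3 of 5 each), and Paneth genes higher in the double knockout (3 of 5 against WT). All 5 goblet genes were higher in the double knockout than in either single knockout, and 3 of 4 tuft genes were lower in Rnaseh2bΔIEC than in WT. The 4 general epithelial genes summed to between 16.58 and 16.68 in all libraries. Of the fibroblast markers 0 of 5 reached the level tested, Col3a1 and Dcn not being in the table used, and of the immune markers Ptprc, Cd3e and Cd79a were below it.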

How the data were processed

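RNA of small intestinal organoids was sequenced from TruSeq stranded mRNA libraries. Per the labels and methods, the authors used cutadapt for trimming, TopHat2 with GRCm38 for alignment, HTSeq for counting and DESeq2 for normalisation and testing; versions are not given in the sources used here. The deposited values are on a log2 scale, from -2.13 to 17.45, and the transformation is not named. Genes with a mean below 0 had a median SD of 0.0039 between libraries, so low genes were shrunk and their differences are understated. Read totals cannot be taken from these values and depth is unknown, so no count model was run, and the number of libraries limits the precision.

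All 14 columns matched a sample by name. Genes whose mean reached 10 on the linear scale were tested in limma 3.58.1 (R 4.3.3). The fit used all 14 libraries, 1 mean per genotype, a mean trend and Benjamini-Hochberg adjustment over 12802 genes. Calls are adjusted p under 0.05. The method was tested on simulated data in which each library varied independently. That simulation had no library pairs, so it cannot show how calls behave when libraries deviate in pairs, as they did here. The groups compared were the 3 knockouts against WT, the double against each single knockout, and the interaction. Alternatives were no filter and a filter of 50, median centring, lane as a term, fits within a lane, only the groups compared, the library number as a block, pairs as a random effect or averaged, and leaving out each library; sex, sex with lane, and male libraries alone were added after seeing the data.

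The genes, steps and lists were chosen with earlier results of these data known. Named with values were 15 fixed genes and, per comparison, the 6 largest rises and 6 largest falls among calls whose libraries did not overlap (no overlap was asked for the interaction); other pathway genes were named when called among the largest 2 of a list in at least 4 comparisons (a limit set after their values were seen), besides Rnaseh2b, Mtor and Tfe3. Annotation was GENCODE M21, promoters RefSeq. Figures were drawn with matplotlib 3.10.9.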

Additional observations from a re-analysis of the deposited data

Results flagged for a closer look

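Within genotypes of 4 libraries, 3 values stood far from the other 3 libraries by Dixon's test, among 90 groups looked at. They were Atg16l1 in WT library 2 (9.542, the highest), Atg2a in WT library 3 (9.425, the lowest) and Atg2a in Atg16l1ΔIEC library 2 (9.438, the lowest). Chance alone gives about 1 in 20 groups.

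The effect of Rnaseh2b deletion differed between Atg16l1-deleted and Atg16l1-intact organoids by limma's interaction test (adjusted p under 0.05) for 16 named genes, in double knockout organoids that had more Atg16l1 and Rnaseh2b RNA than the single knockouts. It was more positive with Atg16l1 deleted for Atg16l1 itself (1.40), Atg2b (0.57), Atg16l2 (0.41), Atg9a (0.40), Ulk2 (0.36), Atg4d (0.25), Tecpr1 (0.20) and Pik3r4 (0.16). It was more negative for Wipi1 (-0.44), Tfeb (-0.37), Atg101 (-0.34), Wipi2 (-0.33), Gabarapl1 (-0.32), Map1lc3b (-0.31), Atg13 (-0.30) and Tax1bp1 (-0.28). With pairs as a random effect the interactions of Atg2b, Atg9a, Map1lc3b, Tax1bp1 and Wipi2 were still called, as was that of Atg16l1. Of these 16, Atg2b, Atg9a, Ulk2 and Atg16l1 were still called once lane was a term.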

How the results depend on the processing

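Counts of called autophagy genes, in the order Rnaseh2bΔIEC, Atg16l1ΔIEC and double knockout against WT, double against Rnaseh2bΔIEC and against Atg16l1ΔIEC, and interaction, were 10, 8, 10, 11, 9 and 16. With lane as a term the comparisons with WT gave 6, 5 and 6 and the interaction 9. Over all 12802 genes tested, that fit called 1504, 1586 and 1418 against WT and 2580 in the interaction. Pairs as a random effect gave 4, 2, 0, 0, 1 and 5, and where limma called 0, 10 and 8 had an unadjusted p under 0.05. Over all genes that fit called 728, 384, 85, 692, 478 and 1553. Averaging pairs, which leaves Rnaseh2bΔIEC with 1 sample assumed to vary like the rest, gave 0 throughout, with 8, 6, 4, 4, 3 and 11 at an unadjusted p under 0.05. Double knockout against WT gave 4 within lane 1, and against Rnaseh2bΔIEC 7 within lane 2 and 5 with only the groups compared. Over all genes these fits called 1311, 2683 and 2456. Sex and lane together gave 3 for the double knockout against WT and 18 against Atg16l1ΔIEC, beside 1547 and 5906 of all genes. Male libraries alone, a single pair per genotype, gave 16 for Rnaseh2bΔIEC and 18 for the double knockout against WT. They gave 21 for the double knockout against Atg16l1ΔIEC. Over all 12802 genes tested, these male fits called 4747, 5343 and 6390, so the higher counts were not particular to the autophagy genes.

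Leaving out a library gave 6 to 11, 6 to 10, 3 to 10, 3 to 11, 2 to 10 and 11 to 15. Counts fell most without either Rnaseh2bΔIEC library (6 and 6 against WT; 3 and 3 against the double knockout), without double knockout library 1 or WT libraries 1 or 2 (4, 3 and 4 for double knockout against WT), and without Atg16l1ΔIEC library 4 (2 for double knockout against Atg16l1ΔIEC).

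Same-numbered libraries of different genotypes correlated from -0.50 to 0.44, with no common sign. Within a genotype the deviations follow its library pairs, which share a sex, so these correlations cannot decide whether numbers pair the samples. With the number as a block the counts were 10, 10, 11, 9, 8 and 15, beside 2890, 2666, 2125, 2994, 3355 and 4484 of all genes.

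Of 66 called differences of named genes, those of Atg2b and Atg9a in Atg16l1ΔIEC, of Atg2b and Atg101 in Rnaseh2bΔIEC, of Atg9a between double knockout and Atg16l1ΔIEC, and the interactions of Atg2b and Atg9a were lost only when pairs were averaged. The interaction of Atg4d reversed to -0.0132 with sex and lane. Stbd1 reversed in Atg16l1ΔIEC (0.34 with lane, 0.66 with sex and lane) and in the interaction (-0.17 and -0.48). The causes were not tested.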

Other observations

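Among other pathway genes, Ddit4 fell in both single knockouts. It encodes REDD1, an inhibitor of mTORC1 induced by hypoxia and stress. It was at 12.83, 12.89, 12.41 and 12.47 in WT, 11.74 and 11.67 in Rnaseh2bΔIEC, 11.63, 11.64, 11.82 and 11.83 in Atg16l1ΔIEC and 12.57, 12.69, 12.18 and 12.20 in the double knockout. Both single knockouts lay below all other libraries. The differences from WT were -0.94 and -0.92 (limma adjusted p of 0.0011 and 0.00041), and the interaction was 1.63 (limma adjusted p = 0.00011). These 3 calls held with a lane term and with pairs as a random effect, and were lost when pairs were averaged.

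Selective receptors outside the 46 genes also differed. Ncoa4, the receptor that delivers ferritin to the autophagosome, was lower by 0.59 and 0.52 in the single knockouts (limma adjusted p of 0.0013 and 0.00097) and was not called in the double knockout. Pink1, which marks damaged mitochondria, was higher by 0.36 and 0.28 (limma adjusted p of 0.0039 and 0.0071). Both genes lost these calls in the fit with lane. Stbd1, a receptor for glycogen, was lower by 1.61, 0.86 and 0.84 in the 3 knockouts (limma adjusted p of 0.0037, 0.039 and 0.049), but at 8.14 and 8.63 in lane 2 against 9.57 and 9.60 in lane 1 libraries of the double knockout. Vps11, a core subunit of the tethering complexes for lysosomal fusion, was at 10.44, 10.48, 10.35 and 10.35 in WT and at 10.09, 9.97, 9.95 and 9.98 in Atg16l1ΔIEC libraries. It was lower there by 0.40 (limma adjusted p = 4e-05, and 0.0028 in the fit with lane), and by 0.16 in the double knockout (limma adjusted p = 0.016). With pairs as a random effect the first Vps11 call held (limma adjusted p = 0.0032) and the second was lost (0.23). Also lost were Stbd1 in Atg16l1ΔIEC and the double knockout (0.16 and 0.21) and Pink1 in Atg16l1ΔIEC (0.053). Ncoa4 in both single knockouts and Pink1 and Stbd1 in Rnaseh2bΔIEC were still called.

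Fkbp8, a mitophagy receptor, was higher in both single knockouts by 0.14 and 0.15, Sesn1 by 0.15 and 0.14 and the SNARE gene Vamp8 by 0.15 and 0.14, and all were lower in the double knockout than in either. Tfe3, a relative of Tfeb, was higher by 0.14 and 0.11. None of these 8 differences from WT was called in the fit with lane or with pairs as a random effect. The differences of Fkbp8, Sesn1 and Vamp8 between the double and the single knockouts were also lost with pairs as a random effect (limma adjusted p from 0.057 to 0.37).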
